A study of Mus musculus with 12 samples.

Results

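Growth factor receptors of the tyrosine kinase type were read from an nCounter panel of 770 mouse cancer pathway genes. The panel was run on eyes with activated alleles for Hedgehog and Wnt signaling, on control eyes, and on brain tumors with an activated allele for Hedgehog signaling alone. The set holds 9 of the 770 genes and was chosen by gene symbol, with no threshold on the values: *Fgfr1*, *Fgfr2*, *Fgfr3* and *Fgfr4*, *Egfr* and *Erbb2*, *Kit*, *Met* and *Igf1r*. All 9 symbols were found, and each had a value above the lowest value of the sample in all 12 samples. The samples were 5 *RBS* lesions, 4 control eyes and 3 Shh-MBs, each taken from a different animal. *RBS* eyes came from *Rax-creERT2::Ctnnb1(ex3)Fl/+SmoM2Fl/+* embryos given tamoxifen at E8.5 and collected at E18.5. The Cre driver acts in *Rax*-expressing retinal precursors, where it deletes exon 3 of *Ctnnb1*, which stabilizes beta-catenin, and switches on SmoM2, an active form of the Hedgehog transducer Smoothened. Control eyes were *Ctnnb1(ex3)Fl/+SmoM2Fl/+* at E18.5, so both floxed alleles were present without a Cre driver, and the labels do not say whether these embryos received tamoxifen. Shh-MBs are medulloblastomas of *hGFAP-cre::SmoM2Fl/+* mice at 14 days of age, in which only SmoM2 is activated and the driver acts in neural precursors of the brain. Tissue, age and genotype differ together between Shh-MBs and eyes and cannot be told apart. Whole eyes and tumors were measured, so a lower level may come from fewer cells of a type or from less RNA per cell, and these cannot be told apart.

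Receptor tyrosine kinases sit in the cell membrane and work in pairs. Binding of a growth factor lets the partners phosphorylate each other and pass the signal through adaptors to the Ras-ERK and PI3K-Akt cascades. *Fgfr1* to *Fgfr4* encode the receptors for fibroblast growth factors, which guide patterning and growth of the neural retina, lens and brain. *Egfr* binds EGF-like ligands and *Erbb2* is its partner without a known ligand of its own. *Kit* is the receptor for stem cell factor, *Met* for hepatocyte growth factor and *Igf1r* for insulin-like growth factors.

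Each value is a normalized signal, not on a log scale, from which a background has been subtracted. Total signal corresponded to 335348 to 716960 counts above background per sample, and *RBS* lesion 1 was the shallowest. Of the 770 genes, 52 to 123 per sample were at the lowest value. The 3 most abundant genes of a sample held 26.9% to 29.7% of the signal in *RBS* lesions, 42.8% to 50.9% in control eyes and 50.04% to 51.8% in Shh-MBs. Of the panel's markers for retinal progenitors, which are *Fgf15*, *Hes5* and *Ccnd1*, the summed signal was 14967 to 20586 in control eyes, against 2624 to 2978 in Shh-MBs and 3178 to 4641 in *RBS* lesions. In the same order of groups, mean signals were 968, 2.33 and 133 for *Fgf15*, 3889, 545 and 2089 for *Hes5*, and 13870, 2200 and 1856 for *Ccnd1*. The sums of control eyes and Shh-MBs came mostly from *Ccnd1*. All 3 genes were called lower in *RBS* lesions and in Shh-MBs than in control eyes. *Rax* is not on the panel. *Gli1*, a direct Hedgehog target, was at 223 ± 15.1 (SD, n = 3) in Shh-MBs, 110 ± 9.24 (SD, n = 4) in control eyes and 69.8 ± 12.6 (SD, n = 5) in *RBS* lesions. The lesions lay below the control eyes by a called difference of -0.67 on the log2 scale (adjusted *p* = 0.00559). A single target gene does not measure the pathway as a whole. The panel's probe positions were not used here, so the signals of *Ctnnb1* and *Smo* do not check the alleles.

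*RBS* lesions against control eyes asks which receptors differed when the Cre driver had acted on both floxed alleles in the eye. Control eyes carried the same alleles without a Cre driver. *Fgfr3* rose 3.62-fold, *Fgfr1* 1.79-fold, *Egfr* 1.77-fold, *Erbb2* 1.44-fold and *Kit* 1.40-fold in *RBS* lesions, while *Met* fell to 0.612 and *Igf1r* to 0.788 of the control level. *Fgfr2* and *Fgfr4* did not pass the test. In all, 7 of 9 receptors were called, 5 higher and 2 lower, at an adjusted *p* under 0.05, where 51.2% of all panel genes were called, 33.0% higher and 18.2% lower. The groups did not overlap for 5 of the 9, against 43.4% of all genes. The median log2 difference of the 9 was 0.48, that of all genes 0.17.

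*Fgfr1* had a signal of 757, 780, 742, 784 and 741 in the 5 *RBS* lesions and of 453, 349, 385 and 528 in the 4 control eyes. The lesions lay within 1.06-fold of each other and all above the highest control eye, and the control eyes spread more widely (CV 18.4% against 2.66%). The log2 difference was 0.84 (95% interval 0.57 to 1.12, limma adjusted *p* = 0.000439, exact permutation *p* = 0.00794, the smallest that 126 splits allow).

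*Fgfr3* showed the largest difference of the set in this comparison, the 47th largest of 770 genes. Its signal was 532, 555, 599, 975 and 687 in *RBS* lesions and 255, 90.6, 213 and 210 in control eyes. Every lesion was above every control eye, and lesion 4 and control eye 2 stood farthest from their groups. The log2 difference was 1.86 (95% interval 1.16 to 2.56, adjusted *p* = 0.000974, exact permutation *p* = 0.00794).

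*Fgfr2* was at 151, 120, 147, 171 and 178 in *RBS* lesions and at 138, 107, 122 and 149 in control eyes, so the groups overlapped. The difference of 0.25 on the log2 scale had an interval from -0.08 to 0.57 (adjusted *p* = 0.191). *Fgfr4* was low in both kinds of eye, with 30.0, 12.3, 17.1, 12.1 and 13.3 in *RBS* lesions and 18.1, 12.5, 18.4 and 27.2 in control eyes. These values rest on 10.0 to 26.1 counts above background, and the interval of the difference, -0.87 to 0.48 on the log2 scale, holds changes of either sign (adjusted *p* = 0.621).

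*Egfr* was at 168, 99.7, 119, 158 and 91.9 in *RBS* lesions and at 85.0, 56.1, 53.5 and 90.7 in control eyes. The lowest lesion lay just above the highest control eye. The log2 difference was 0.83 (95% interval 0.28 to 1.37, adjusted *p* = 0.0175, exact permutation *p* = 0.0159). Without control eye 2 it was 0.73 with an adjusted *p* of 0.0515, and without control eye 3 it was 0.70 with an adjusted *p* of 0.0528.

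*Erbb2* was at 363, 204, 237, 239 and 272 in *RBS* lesions and at 186, 153, 160 and 224 in control eyes, and lesion 2 lay below control eye 4. Its log2 difference of 0.53 passed the threshold narrowly (adjusted *p* = 0.0365). The call was lost when any of lesions 1, 3, 4 and 5 or of control eyes 1, 2 and 3 was left out, with differences of 0.40 to 0.56 and adjusted *p* of 0.0509 to 0.100. It was also lost in 7 of 13 other alternatives, where the difference went down to 0.33 with quantile normalization.

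*Kit* was at 178, 147, 167, 192 and 186 in *RBS* lesions and at 134, 125, 136 and 102 in control eyes. All lesions were above all control eyes. The log2 difference was 0.48 (95% interval 0.21 to 0.75, adjusted *p* = 0.00849, exact permutation *p* = 0.0159), and the call was lost with median centring (0.30, adjusted *p* = 0.0860), with quantile normalization (0.30, adjusted *p* = 0.0974) and in a fit of all 12 samples (adjusted *p* = 0.0703). *Kitl*, which encodes the ligand of *Kit*, was the only called gene of the 4 ligands of *Egfr*, *Erbb2*, *Kit*, *Met* and *Igf1r* on the panel, with 595 ± 95.6 (SD, n = 5) against 391 ± 64.9 (SD, n = 4) and a log2 difference of 0.61 (adjusted *p* = 0.00849).

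*Met* went the other way. Its signal was 114, 99.7, 78.8, 94.1 and 91.0 in *RBS* lesions and 178, 153, 145 and 148 in control eyes, with no overlap. The log2 difference was -0.71 (95% interval -0.98 to -0.44, adjusted *p* = 0.00100, exact permutation *p* = 0.00794). *Igf1r* was at 531, 669, 639, 693 and 618 in *RBS* lesions and at 940, 814, 678 and 775 in control eyes, and control eye 3 lay within the range of the lesions. Its difference of -0.34 was called (adjusted *p* = 0.0376), and the call was lost when any of lesions 1, 2, 3 and 5 or of control eyes 1, 2 and 4 was left out, with differences of -0.37 to -0.26 and adjusted *p* of 0.0537 to 0.104.

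**Figure D1:**
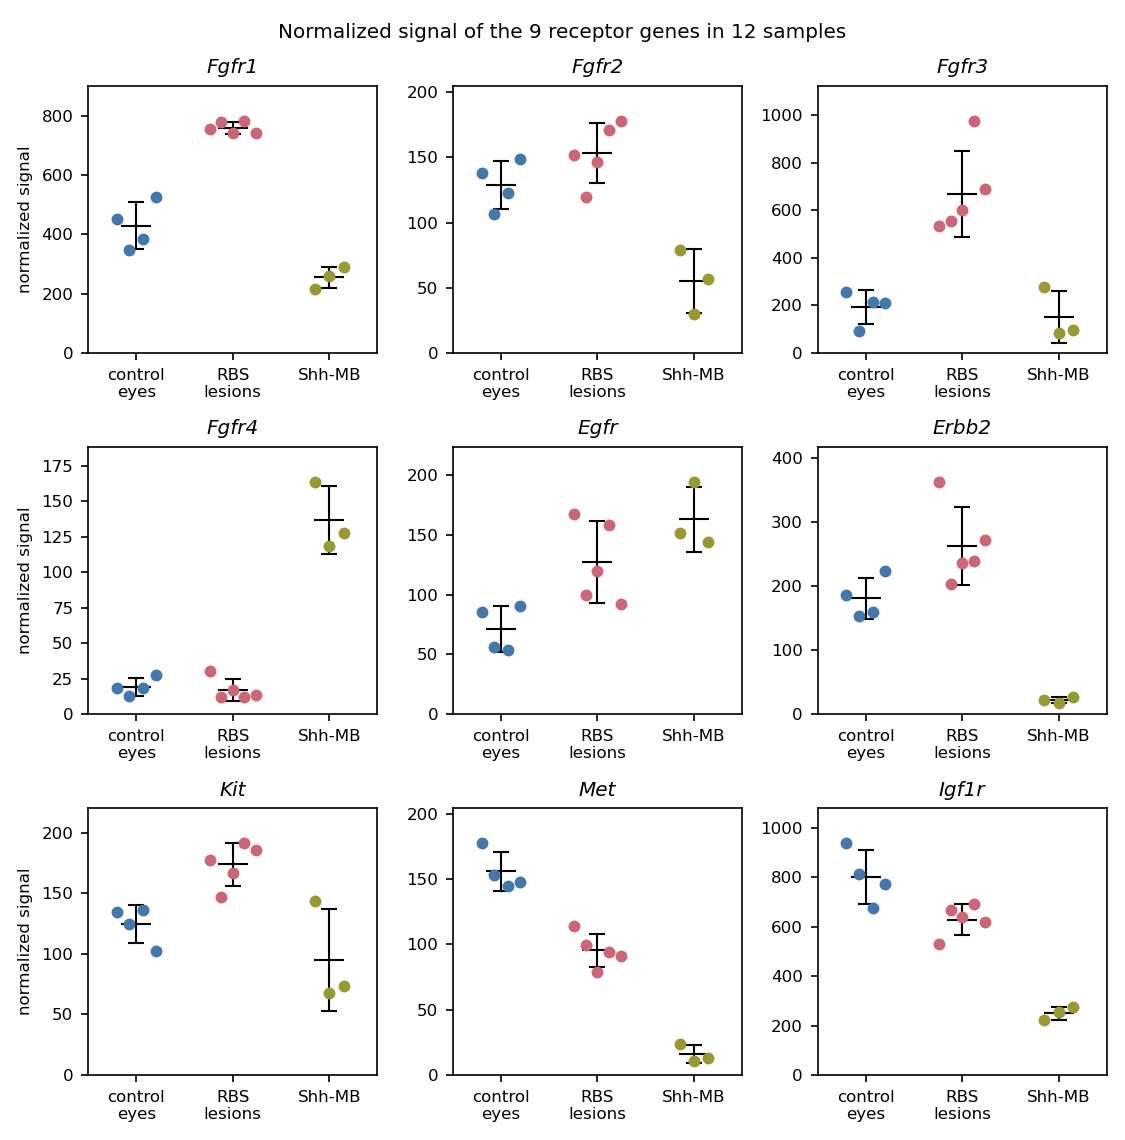
Normalized signal (linear scale, from 0) of each receptor gene, with a point for each sample and bars for the mean and SD of 4 control eyes, 5 *RBS* lesions and 3 Shh-MBs. *Fgfr1*, *Fgfr3* and *Kit* are highest in *RBS* lesions, *Met* and *Igf1r* in control eyes, and *Fgfr4* is between 119 and 164 in Shh-MBs and at most 30.0 in every eye.

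Marker lists for the cell types of the sample are given beside these results. The neuron markers *Mapt*, *Grin2b* and *Cacna1e* were all called higher in *RBS* lesions and had a summed signal of 2171 to 2908 against 548 to 701 in control eyes. The 6 surface epithelium markers on the panel summed to 469 to 793 against 253 to 410, with 4 of 6 called higher and 0 lower. The endothelium markers *Kdr* and *Flt1* summed to 622 to 858 against 1683 to 2163, and *Kdr* was called lower. The 5 mesenchyme markers overlapped, at 18394 to 34222 against 23660 to 53849, with 2 of 5 called lower. The 5 blood and immune markers summed to 169 to 228 against 86.6 to 135, with 2 of 5 called higher. The 4 skeletal muscle markers overlapped, at 27.2 to 65.4 against 6.81 to 63.8, and none of the 4 was called. The markers of cerebellar granule precursors and Shh tumors, *Gli1* and *Mycn*, summed to 708 to 884 against 1167 to 1532, and both were called lower. The retinal progenitor markers given above were all called lower as well. Their part in the receptor results was not tested.

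Promoters are shown for 4 receptors that each led a comparison in 1 direction. The table of promoter sequences used here, from RefSeq (build GRCm38.p6), holds windows of 250 bases before to 50 bases after the start for 8 of the 9 genes, all but *Fgfr1*, in 10 windows because *Fgfr3* and *Kit* have more than 1 start. Both *Fgfr3* windows, which lie on the + strand at chr5:33721474-33721773 and chr5:33722056-33722355, are given for the gene with the largest rise against control eyes in *RBS* lesions, *Fgfr4* (chr13:55152568-55152867, + strand) for the gene with the largest rise in Shh-MBs over control eyes, *Met* (chr6:17463707-17464006, + strand) for the gene with the largest fall against control eyes in both *RBS* lesions and Shh-MBs, and *Erbb2* (chr11:98412234-98412533, + strand) for the largest rise in *RBS* lesions against Shh-MBs. Capitals mark GC boxes, the letters GGGCGG or CCGCCC on the strand shown, and neighbouring boxes can share a base.
Fgfr3 window at 33721474: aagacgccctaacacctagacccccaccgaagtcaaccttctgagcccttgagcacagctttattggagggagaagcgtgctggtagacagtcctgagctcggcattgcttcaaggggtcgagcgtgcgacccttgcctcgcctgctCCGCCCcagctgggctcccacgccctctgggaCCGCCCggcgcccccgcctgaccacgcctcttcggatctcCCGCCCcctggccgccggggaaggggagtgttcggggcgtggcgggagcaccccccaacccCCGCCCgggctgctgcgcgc
Fgfr3 window at 33722056: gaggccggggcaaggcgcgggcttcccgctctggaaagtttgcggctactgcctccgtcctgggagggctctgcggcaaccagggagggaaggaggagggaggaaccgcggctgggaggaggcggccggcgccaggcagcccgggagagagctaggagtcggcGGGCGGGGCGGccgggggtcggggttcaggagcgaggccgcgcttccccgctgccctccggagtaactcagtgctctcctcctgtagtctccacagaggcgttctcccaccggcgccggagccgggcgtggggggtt
Fgfr4: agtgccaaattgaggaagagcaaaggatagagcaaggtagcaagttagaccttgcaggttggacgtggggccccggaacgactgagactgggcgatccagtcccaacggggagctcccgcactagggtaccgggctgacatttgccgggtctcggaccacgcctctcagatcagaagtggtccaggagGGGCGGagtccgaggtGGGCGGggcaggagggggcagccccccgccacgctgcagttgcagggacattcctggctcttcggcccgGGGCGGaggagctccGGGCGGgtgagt
Met: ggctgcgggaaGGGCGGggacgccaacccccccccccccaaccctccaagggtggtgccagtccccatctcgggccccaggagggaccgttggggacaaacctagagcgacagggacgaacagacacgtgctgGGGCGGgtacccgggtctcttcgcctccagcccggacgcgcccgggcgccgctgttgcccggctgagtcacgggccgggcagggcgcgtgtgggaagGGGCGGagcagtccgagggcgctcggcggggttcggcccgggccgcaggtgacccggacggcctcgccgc
Erbb2: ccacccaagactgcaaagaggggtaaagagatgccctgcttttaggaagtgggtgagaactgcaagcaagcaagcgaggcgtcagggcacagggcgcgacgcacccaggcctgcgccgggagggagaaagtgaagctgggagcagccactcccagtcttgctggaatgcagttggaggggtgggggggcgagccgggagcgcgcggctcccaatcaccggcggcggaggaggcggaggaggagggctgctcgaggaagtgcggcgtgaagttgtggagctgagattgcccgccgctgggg
A GC box was found in 8 of the 10 windows, which belong to 6 of the 8 genes (both *Kit* windows hold the same box), and in 35.7% of all 32851 promoter windows of the reference. The windows of *Fgfr2* and *Erbb2* had none. GC content ran from 43.7% in *Fgfr2* to 76.0% in *Igf1r*, and its median over all windows was 52.7%. The letters GACCACCCA of a Gli site, on either strand, were in none of the 10 windows and in 0.253% of all windows, and ATCAAAG of a TCF/LEF site was in none of the 10 and in 3.73% of all. These matches describe letters within the window only.

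*RBS* lesions against Shh-MBs sets the eye lesions beside a tumor in which Shh signaling alone was activated. *Erbb2* was 11.5-fold, *Met* 5.93-fold, *Fgfr3* 4.97-fold, *Fgfr1* 2.99-fold, *Fgfr2* 2.94-fold, *Igf1r* 2.51-fold and *Kit* 1.92-fold higher in *RBS* lesions, and *Fgfr4* was 8.05-fold lower. *Egfr* did not pass the test. With 8 of 9 receptors called, 7 higher and 1 lower, the set stood beside 60.8% of all genes called, 48.1% higher and 12.7% lower, and the groups did not overlap for 8 of the 9 receptors and for 59.9% of all genes. The median log2 difference was 1.56 for the 9 and 0.53 for all genes.

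The 3 Shh-MBs had a signal of 217, 259 and 289 for *Fgfr1*, 78.6, 29.6 and 56.6 for *Fgfr2*, and 278, 83.0 and 96.5 for *Fgfr3*. For these receptors every tumor was below every *RBS* lesion. The log2 differences were 1.58 for *Fgfr1* (95% interval 1.32 to 1.84, adjusted *p* = 1.12e-05), 1.56 for *Fgfr2* (0.88 to 2.24, adjusted *p* = 0.00193) and 2.31 for *Fgfr3* (1.38 to 3.24, adjusted *p* = 0.00123). With median centring these differences were 0.74, 0.71 and 1.47, and all were still called. Over 13 alternatives that kept all samples, *Fgfr2* and *Fgfr3* each lost their call in 2 and *Fgfr1* in 1. Shh-MB 1 had 3.35 times the *Fgfr3* signal of Shh-MB 2. *Fgfr4*, with 164, 119 and 128 in Shh-MBs, was the receptor whose order was turned, and its lowest tumor lay far above its highest lesion at 30.0. The log2 difference of *Fgfr4* was -3.01 (95% interval -3.70 to -2.32, adjusted *p* = 5.77e-05).

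*Erbb2* was at 22.7, 16.5 and 26.9 in Shh-MBs, on 17.6 to 31.7 counts above background, and every *RBS* lesion was at 204 or above. Its log2 difference of 3.52 (95% interval 3.01 to 4.03, adjusted *p* = 6.16e-06) was the 44th largest of 770, and it was 2.45 with quantile normalization (adjusted *p* = 3.92e-05). Its relative *Egfr* was at 151, 194 and 144 in Shh-MBs and overlapped with the lesions, with a difference of -0.38 (95% interval -0.92 to 0.15, adjusted *p* = 0.186). That value was called lower in *RBS* lesions when the samples were scaled otherwise: it was -1.23 with median centring, -1.03 with quantile normalization and -0.77 with each total taken less its 3 most abundant genes (adjusted *p* = 0.00210, 0.00623 and 0.0169).

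*Met* was at 23.8, 10.8 and 13.4 in Shh-MBs, on 11.6 to 21.2 counts above background, and differed by 2.57 on the log2 scale (95% interval 2.01 to 3.12, adjusted *p* = 4.36e-05). *Igf1r* was at 222, 253 and 274 and differed by 1.33 (95% interval 1.04 to 1.62, adjusted *p* = 4.30e-05). Every lesion was above every tumor for both. *Met* differed by 1.28 with quantile normalization (adjusted *p* = 0.000164) and *Igf1r* by 0.48 with median centring (adjusted *p* = 0.0368). *Kit* was at 144, 68.0 and 73.6, with Shh-MB 1 just under the lowest lesion at 147. Its log2 difference of 0.94 was called (95% interval 0.38 to 1.51, adjusted *p* = 0.00960), and the call was lost with median centring (0.10), quantile normalization (0.17) and totals taken less the 3 most abundant genes (0.56), where adjusted *p* was 0.682, 0.427 and 0.0774. The marker sums differed widely between the same groups, at 18394 to 34222 in *RBS* lesions against 1243 to 1916 in Shh-MBs for mesenchyme, 469 to 793 against 65.7 to 87.2 for surface epithelium, 622 to 858 against 93.8 to 196 for endothelium and 2171 to 2908 against 323 to 477 for neurons. By gene, 4 of 5 mesenchyme markers, 4 of 6 of surface epithelium, 2 of 2 of endothelium and 3 of 3 of neurons were higher in lesions, while *Pdgfra* of the mesenchyme list (-1.01) and *Lama5* of the epithelium list (-0.90) were lower. Skeletal muscle markers summed to 27.2 to 65.4 against 156 to 199, with *Itga7* lower in lesions (-2.97), *Cacng1* higher and at the lowest value in all 3 tumors, and the other 2 not called. Blood and immune markers summed to 169 to 228 against 113 to 236, and 0 of 5 were called. The granule precursor and Shh tumor markers summed to 708 to 884 against 3305 to 4125, with *Mycn* (-2.36) and *Gli1* (-1.68) lower in lesions. Of the retinal progenitor markers *Fgf15* (5.48) and *Hes5* (1.93) were higher in lesions and *Ccnd1* was not called. Their part in the receptor differences was not tested. For each of the 8 called receptors the exact permutation *p* was 0.0179, the smallest that 56 splits allow.

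**Figure D2:**
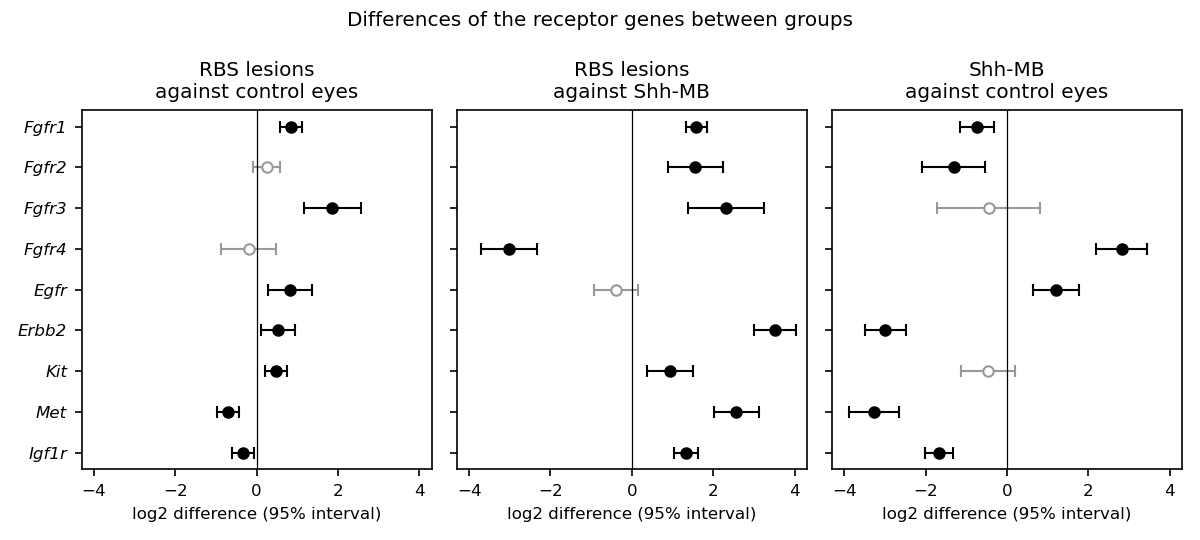
Log2 difference of each receptor gene with its 95% interval from limma, first group minus second group, in the 3 comparisons. Filled points passed an adjusted *p* of 0.05 and open grey points did not: *Fgfr2* and *Fgfr4* in the first comparison, *Egfr* in the second, *Fgfr3* and *Kit* in the third.

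Shh-MBs against control eyes completes the 3 pairs. It shares the control eyes with the first comparison and the tumors with the second, so its values are given beside them and not as a separate line of evidence. *Fgfr4* was 7.03-fold and *Egfr* 2.31-fold higher in Shh-MBs, and *Met* was 9.69-fold, *Erbb2* 7.95-fold, *Igf1r* 3.19-fold, *Fgfr2* 2.48-fold and *Fgfr1* 1.67-fold lower. These are 7 of 9 receptors, 2 higher and 5 lower, and 41.0% of all genes were called, 9.61% higher and 31.4% lower. The groups did not overlap for 7 of the 9 and for 48.2% of all genes. The median log2 difference was -0.74 for the 9 and -0.22 for all genes.

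*Fgfr4* differed by 2.81 on the log2 scale (95% interval 2.20 to 3.43, adjusted *p* = 0.000191) and *Egfr* by 1.21 (0.64 to 1.78, adjusted *p* = 0.00633). *Met* differed by -3.28 (-3.89 to -2.67, adjusted *p* = 9.43e-05), *Erbb2* by -2.99 (-3.49 to -2.49, adjusted *p* = 6.36e-05) and *Igf1r* by -1.67 (-2.02 to -1.33, adjusted *p* = 0.000141). These receptors kept their calls when any single sample was left out. With quantile normalization *Fgfr4* differed by 3.56, *Met* by -2.35 and *Erbb2* by -2.15, with median centring *Egfr* differed by 1.88 and *Igf1r* by -1.01, and all were still called. *Fgfr2* (-1.31, adjusted *p* = 0.0174) and *Fgfr1* (-0.74, adjusted *p* = 0.0160) also kept their calls when any single sample was left out. With median centring, however, *Fgfr1* was at -0.07 (adjusted *p* = 0.775) and *Fgfr2* at -0.65 (adjusted *p* = 0.0609). Over 13 alternatives that kept all samples, *Fgfr1* lost its call in 6 and *Fgfr2* in 5, and the difference of *Fgfr2* ran from -1.35 to -0.55. *Fgfr3* (-0.45, 95% interval -1.73 to 0.82) and *Kit* (-0.46, -1.12 to 0.20) were not called, with adjusted *p* of 0.545 and 0.241, and both were above 0 with median centring and quantile normalization. Without Shh-MB 1, *Kit* differed by -0.80 (adjusted *p* = 0.00857). The summed markers of Shh-MBs, given above, lay below those of control eyes for mesenchyme (23660 to 53849), surface epithelium (253 to 410), endothelium (1683 to 2163) and neurons (548 to 701), and above them for skeletal muscle (6.81 to 63.8). By gene, 4 of 5 mesenchyme markers, 4 of 6 of surface epithelium and 1 of 2 of endothelium were lower in Shh-MBs, with *Pdgfra* (1.53) and *Lama5* (1.43) higher. Of the neuron markers *Mapt*, the most abundant, was lower (-1.02) but *Cacna1e* (2.91) and *Grin2b* (0.93) were higher, and of the muscle markers *Itga7* was higher (3.72) and *Cacng1* lower. Granule precursor and Shh tumor markers summed to 3305 to 4125 in Shh-MBs against 1167 to 1532 in control eyes, and both were called higher. All 3 retinal progenitor markers were called lower in Shh-MBs, with *Fgf15* at -8.36, *Hes5* at -2.82 and *Ccnd1* at -2.65. Blood and immune markers overlapped, at 113 to 236 against 86.6 to 135, and 1 of 5, *Cd14* (1.47), was called higher. The part of these markers here was not tested. The exact permutation *p* of each called receptor was 0.0286, the smallest that 35 splits allow.

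Ordered by level, the receptors gave 4 patterns over the groups. *Fgfr1*, *Fgfr2*, *Fgfr3*, *Erbb2* and *Kit* were highest in *RBS* lesions and lowest in Shh-MBs, though with median centring and quantile normalization *Fgfr3* and *Kit* were lowest in control eyes. Both neighbouring steps of that order were called without overlap for *Fgfr1* alone, whose step from control eyes to Shh-MBs lost its call in 6 of 13 alternatives and was -0.07 with median centring. For *Fgfr2* and *Erbb2* the lesions and control eyes overlapped, and for *Fgfr3* and *Kit* the control eyes and Shh-MBs did. *Met* and *Igf1r* were highest in control eyes and lowest in Shh-MBs, with both steps called without overlap for *Met*, while *Igf1r* overlapped between control eyes and lesions. *Egfr* and *Fgfr4* were highest in Shh-MBs, with *Egfr* lowest in control eyes and *Fgfr4* lowest in *RBS* lesions. The lesions and tumors overlapped for *Egfr*, the lesions and control eyes for *Fgfr4*.

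Centring moved the receptors of a comparison by the same amount, while quantile normalization moved them unequally, in lesions against Shh-MBs from 3.52 to 2.45 for *Erbb2* and from -0.38 to -1.03 for *Egfr*. The median log2 difference of all genes was 0.17, 0.53 and -0.22 in the 3 comparisons as deposited and -0.01, -0.32 and 0.44 after median centring. Centring on 13 housekeeping genes instead left the same number of receptors called as in the deposited values, 7, 8 and 7. The share of panel calls that were higher was 64.5%, 79.1% and 23.4% as deposited, 50%, 36.2% and 69.1% with median centring, and 50.8%, 46.2% and 59.9% with quantile normalization. With each sample set to its total less the 3 most abundant genes it was 60.6%, 62.3% and 47.5%.

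**Figure D3:**
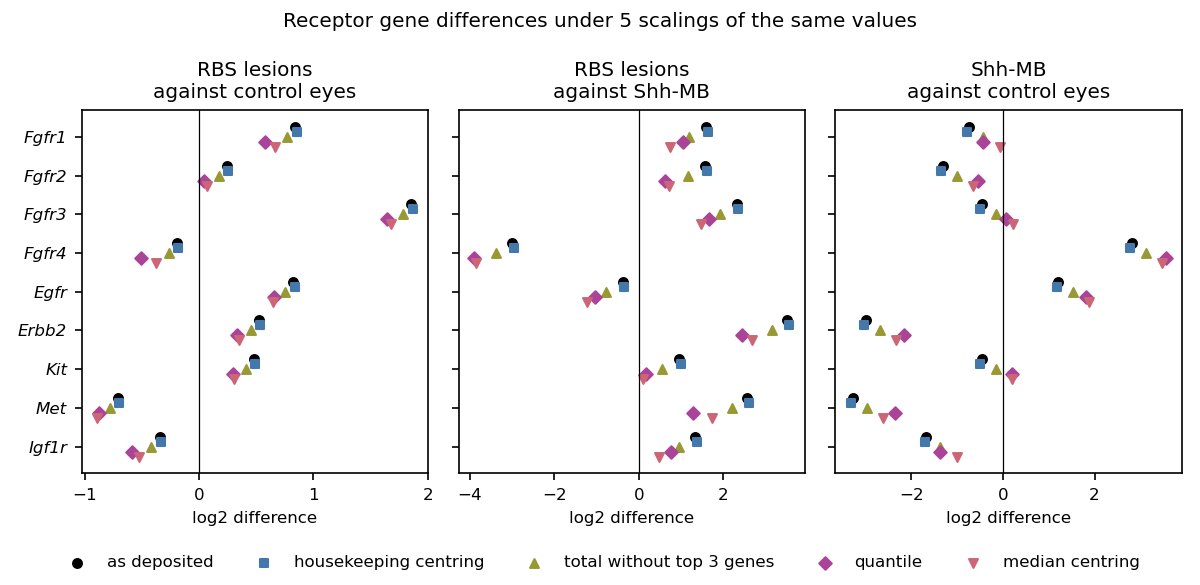
Log2 difference of each receptor gene, first group minus second group, under 5 scalings of the same values (the horizontal axes differ between panels). All 9 genes keep their side of 0 in the first and second panels, and *Fgfr3* and *Kit* cross 0 in the third, at 0.21 for both with median centring.

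The genes most like each receptor over the 12 samples were taken from the root mean square difference of log2 values centred on each gene's mean, among 568 genes whose mean log2 value was no lower than the log2 of 20. For *Fgfr1* these included *Jak2* (0.21) and *Notch2* (0.21), where the median over the 568 genes was 0.68. *Kit* was nearest to *Cacng4* (0.12), *Cacna1d* (0.19) and *Rras2* (0.20), against a median of 0.58. *Igf1r* was nearest to *Cdc14a* (0.16), *Tgfbr1* (0.23) and *Tiam1* (0.28), and *Fgfr2* to *Mecom* (0.22), *Tnfaip3* (0.29) and *Mfng* (0.32). *Met* was nearest to *Dll1* (0.25), *Rxrg* (0.27) and *Notch1* (0.33), and *Egfr* to *Fzd7* (0.30), *Map3k13* (0.32) and *Cebpa* (0.34). *Fgfr3* was nearest to *Wnt7a* (0.34), *Prkca* (0.40) and *Tspan7* (0.51), and *Erbb2* to *Col4a5* (0.34), *Bmp2* (0.35) and *Wnt5a* (0.35). No gene came closer than 0.52 to *Fgfr4*, whose nearest were *Map3k1* (0.52), *Cacna2d1* (0.54) and *Cdk6* (0.57). These distances also depend on how much a receptor varied about its own mean, with a root mean square of 1.33 for *Fgfr4* and 0.47 for *Kit*. Within the set, *Fgfr2* and *Kit* were the closest pair (0.41) and *Fgfr4* and *Erbb2* the most distant (2.72).

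Lists of related genes are read beside the panel. Against control eyes, 33.0% of all genes were higher and 18.2% lower in *RBS* lesions, with a median log2 difference of 0.17. Against Shh-MBs, 48.1% were higher and 12.7% lower (median 0.53), and in Shh-MBs against control eyes 9.61% were higher and 31.4% lower (median -0.22). No list was tested against these shares.

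Of 18 secreted FGF ligands, all on the panel, 2 were called higher, 3 lower and 13 not called in *RBS* lesions against control eyes, with a median of -0.29 beside 0.17 for all genes. Most of the ligands not called had a mean signal under 20 in both kinds of eye, some at the lowest value in every sample of a group. The count not called and the median therefore rest in part on ligands that were barely detected. *Fgf15*, a FGF of the embryonic retina and brain, was at 133 ± 33.0 (SD, n = 5) in *RBS* lesions against 968 ± 129 (SD, n = 4) in control eyes and differed by -2.89 on the log2 scale (adjusted *p* = 1.31e-05). *Fgf3* was at 94.9 to 125 in control eyes and at 1.00 to 6.54 in *RBS* lesions, 2 of which were at the lowest value of the sample. *Fgf7*, a ligand of the epithelial form of *Fgfr2*, was at 58.8 ± 5.64 (SD, n = 5) against 32.7 ± 19.5 (SD, n = 4) and rose by 0.99 on the log2 scale (adjusted *p* = 0.0277). *Fgf17* was called higher as well, at 4.48 ± 1.92 (SD, n = 5) with 3 of 4 control eyes at the lowest value.

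Against Shh-MBs, 6 of the 18 FGFs were higher in *RBS* lesions and 3 lower (median 0.62, beside 0.53 for all genes), and 2 were higher and 4 lower in Shh-MBs than in control eyes (median -0.69). *Fgf1*, which can bind all FGF receptors, was at 53.4 ± 28.0 (SD, n = 3) in Shh-MBs, 12.6 ± 1.23 (SD, n = 4) in control eyes and 8.98 ± 2.46 (SD, n = 5) in *RBS* lesions, and the tumors were called higher than either. *Fgf5* was called in the same directions, at 26.0 ± 9.75 (SD, n = 3) in Shh-MBs and 9.37 ± 4.13 (SD, n = 4) in control eyes, with 3 of 5 lesions at the lowest value. *Fgf18* was at 66.0 ± 7.62 (SD, n = 5) in *RBS* lesions against 6.72 ± 5.79 (SD, n = 3) in Shh-MBs. *Fgf3* was at the lowest value in 3 of 3 and *Fgf15* in 2 of 3 Shh-MBs. Of the other ligands, *Igf1*, which binds *Igf1r*, was at 59.2 ± 14.1 (SD, n = 5) in *RBS* lesions and at 3.75 ± 4.65 (SD, n = 3) in Shh-MBs, where 2 of 3 were at the lowest value. *Hgf*, which binds *Met*, was at 27.6 ± 7.22 (SD, n = 5) against 4.60 ± 1.36 (SD, n = 3) and was called as well (adjusted *p* = 6.24e-05).

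**Figure D4:**
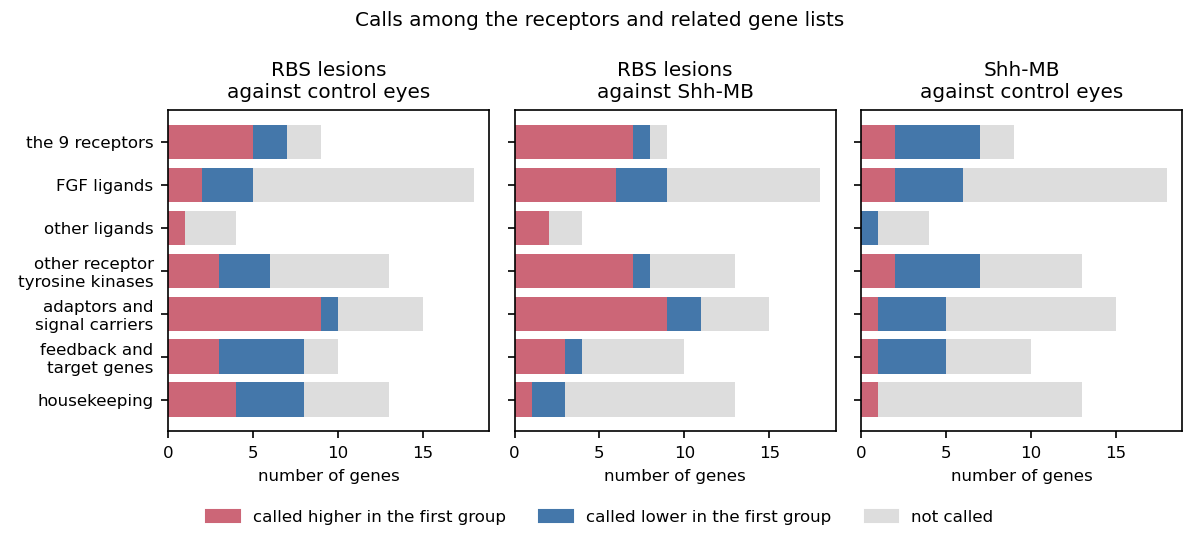
Number of genes called higher in the first group, called lower, and not called, for the 9 receptors and 6 lists of related panel genes in the 3 comparisons (limma, adjusted *p* under 0.05). Of the 18 FGF ligands, 2 were called higher and 3 lower in *RBS* lesions against control eyes, and of the 9 receptors 5 and 2. Most FGF ligands not called there had low signals in both kinds of eye.

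Of 13 other receptor tyrosine kinases on the panel, 3 were higher and 3 lower in *RBS* lesions against control eyes (median 0.25), a share called near the 51.2% of all genes. *Alk* rose from 8.92 ± 7.19 (SD, n = 4) to 45.1 ± 9.39 (SD, n = 5) and *Ntrk2*, the receptor for BDNF, from 239 ± 36.0 (SD, n = 4) to 516 ± 68.7 (SD, n = 5). *Epha2* fell from 21.5 ± 1.36 (SD, n = 4) to 5.25 ± 2.58 (SD, n = 5) and *Kdr*, a VEGF receptor of endothelium, from 1864 ± 235 (SD, n = 4) to 664 ± 109 (SD, n = 5). Against Shh-MBs, 7 of the 13 were higher in lesions and 1 lower, which was *Pdgfra* with 483 ± 40.1 (SD, n = 5) against 982 ± 184 (SD, n = 3). Shh-MBs had 2 of the 13 higher and 5 lower than control eyes.

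Downstream of the receptors, 9 of 15 adaptors and first signal carriers were higher and 1 lower in *RBS* lesions when set against control eyes, with a median of 0.42 beside 0.17 for all genes. *Shc3*, an adaptor of neurons, rose by 2.49 on the log2 scale (adjusted *p* = 3.16e-06) and *Stat3* by 1.29 (adjusted *p* = 7.39e-05), while *Shc1* fell by 0.58 on the log2 scale (adjusted *p* = 0.00966). Against Shh-MBs, 9 were higher and 2 lower (median 0.87, beside 0.53), led by *Pik3r1*, a regulatory subunit of PI3K, with 2.30 (adjusted *p* = 9.42e-06). In Shh-MBs, 1 was higher and 4 were lower than in control eyes (median 0.11).

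Of 10 feedback and target genes of receptor-ERK signaling, 3 were higher and 5 lower in *RBS* lesions when set against control eyes, with a median of -0.40 beside 0.17 for all genes. *Dusp4*, an ERK phosphatase, rose from 544 ± 97.6 (SD, n = 4) to 1917 ± 581 (SD, n = 5) and *Fos* from 36.5 ± 13.9 (SD, n = 4) to 85.7 ± 26.6 (SD, n = 5). *Ccnd1*, which is also a retinal progenitor marker here, fell from 13870 ± 1834 (SD, n = 4) to 1856 ± 374 (SD, n = 5), and *Dusp5* fell by 0.83 on the log2 scale (adjusted *p* = 0.00403). Against Shh-MBs, 3 were higher and 1 lower in lesions (median 0.22), with *Dusp4* at 1917 ± 581 (SD, n = 5) against 353 ± 110 (SD, n = 3), *Spry1*, an inhibitor of receptor signaling, at 149 ± 17.3 (SD, n = 5) against 75.8 ± 14.3 (SD, n = 3) and *Dusp5* at 33.5 ± 6.37 (SD, n = 5) against 215 ± 56.7 (SD, n = 3). In Shh-MBs, 1 was higher and 4 were lower than in control eyes (median -0.56). The 13 housekeeping genes had medians of 0.02, -0.01 and 0.03 in the 3 comparisons, but 8 of them were called in *RBS* lesions against control eyes, 4 higher and 4 lower, over a range of -0.54 to 0.49. Against Shh-MBs 1 was higher and 2 lower in lesions, and 1 was higher in Shh-MBs than in control eyes.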

How the data were processed

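RNA of fresh frozen eyes and tumors was measured on the nCounter Mouse PanCancer Pathways panel with the SPRINT Profiler. The authors used nSolver with its Advanced Analysis module for normalization, and the deposited values are signal that is normalized but not log-transformed. Low values are evenly spaced in each sample, so a background was subtracted and each sample multiplied by a single factor, from which depth was estimated as total signal over the step. The background setting and reference genes are not given in the sources used here. Since whole counts were not recovered, log2 of the signal plus 1 was tested in R 4.3.3 with limma 3.58.1 (two-sided test, Benjamini-Hochberg adjustment over 770 genes, threshold 0.05), for each pair of groups. Exact permutation tests were two-sided and unadjusted. The design limits precision to 5, 4 and 3 samples, and genes have different probes, so levels were compared within a gene only.

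Named genes are the 9 receptors, the 2 largest called rises and falls of each related list, and the 3 nearest genes of each receptor, of which 1 is not reported here. Members and lists were chosen with earlier results of these data known. Of the 770 symbols, 760 matched RefSeq directly, the 9 receptors among them. Alternatives were another pseudocount, low-value filters, 4 other scalings, limma settings, the methods' Welch test without its permutations, all 12 samples in 1 fit, a replicate block and leaving out each sample; a term for *Uty* was added after seeing the data. The fit was tested on simulated data. Python 3.11.15 and matplotlib 3.10.9 drew the figures. The human samples and protein data were not analysed here.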

Additional observations from a re-analysis of the deposited data

How the results depend on the processing

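Over all alternatives, 494 of 566 receptor differences kept their direction and side of the threshold, 63 lost their call, 4 gained one and 5 changed sign. The 5 were values that had not been called: *Fgfr4* in *RBS* lesions against control eyes with values under 20 set to 20 (0.00652), and, in Shh-MBs against control eyes, *Fgfr3* with median centring (0.21) and quantile normalization (0.0585) and *Kit* with the same settings (0.21 and 0.19). *Fgfr4* has no value in the first comparison where genes with a low mean are left out.

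The number of receptors called was 7, 8 and 7 in *RBS* lesions against control eyes, *RBS* lesions against Shh-MBs and Shh-MBs against control eyes. With Welch's test, which the methods name, here without their 100 permutations and with step-down Bonferroni adjustment, it was 0, 1 and 1, and 72, 80 and 36 panel genes were called in place of 394, 468 and 316. The same test with Benjamini-Hochberg adjustment called 5, 5 and 6 receptors. Leaving out each sample gave 4 to 6 receptors in the first comparison, 4 of them without control eye 2, 8 in the second and 7 to 8 in the third. The replicate numbers did not pair the samples, since same-numbered samples deviated together with correlations of -0.15 to 0.19. With the replicate block, in which *RBS* lesion 5 has no partner, 4, 8 and 6 receptors were called, and *Erbb2*, *Kit* and *Igf1r* lost their calls in the first comparison.

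A term for *Uty*, a Y-linked gene above 100 in 2 *RBS* lesions, 1 control eye and 3 Shh-MBs, gave 6, 8 and 5 receptors, without *Erbb2* in the first comparison and without *Fgfr1* and *Fgfr2* in the third, where 182 panel genes were called in place of 316. Since all 3 Shh-MBs are above 100, the difference with this term rests on 1 control eye in the third comparison and on 2 lesions in the second. Depth limits *Fgfr4* in eyes and *Met* and *Erbb2* in Shh-MBs most, where single values rest on at most 31.7 counts above background. The cause of these shifts was not tested.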

Other observations

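No value of a receptor lay far from the rest of its group by Dixon's test, which was run on 18 sets of 4 or 5 samples, and the 3 Shh-MBs were too few for it. The same samples were nevertheless at the ends of several receptors. Control eyes 1 and 4 had higher signals than control eyes 2 and 3 for *Fgfr1* (453 and 528 against 349 and 385), *Fgfr2* (138 and 149 against 107 and 122), *Egfr* (85.0 and 90.7 against 56.1 and 53.5) and *Erbb2* (186 and 224 against 153 and 160). The summed signal of the mesenchyme markers was 39914 and 53849 in these control eyes and 23660 and 32851 in the others. Surface epithelium markers, at 253 and 410 against 267 and 271, did not split the eyes this way. Neither did *Fgfr3*, *Fgfr4*, *Kit*, *Met* and *Igf1r*. Shh-MB 1 had the highest signal of the tumors for *Fgfr2* (78.6), *Fgfr3* (278), *Fgfr4* (164), *Kit* (144) and *Met* (23.8) and the lowest for *Fgfr1* (217) and *Igf1r* (222). Its blood and immune markers summed to 236, against 130 and 113 in the other tumors, its endothelium markers to 196, against 93.8 and 120, and its mesenchyme markers to 1243, against 1889 and 1916. Its granule precursor and Shh tumor markers summed to 3305, against 4092 and 4125, and its neuron markers to 477, against 433 and 323. It was the highest or lowest tumor for the remaining marker lists as well. *RBS* lesion 1, the shallowest sample, had the highest signal of the lesions for *Egfr* (168), *Erbb2* (363), *Fgfr4* (30.0) and *Met* (114) and the lowest for *Fgfr3* (532) and *Igf1r* (531).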
